A study of Mus musculus with 13 samples.

Results

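A set of 10 genes that T cells switch on soon after stimulation is described here in regulatory T cells (Treg cells). They are Nr4a1, Nr4a2, Nr4a3, Egr1, Egr2, Egr3, Cd69, Ier2, Ier3 and Dusp2. They were taken by name, whatever their values, and are 10 of the 24338 identifiers in the deposited expression table. There were 6 RNA-seq libraries, 3 of WT and 3 of CAT, and 5 libraries of ATAC-seq, in which a transposase cuts accessible DNA, 3 of WT and 2 of CAT, all from lymph nodes of male C57BL/6 mice at 21 days of age. TCF1 ChIP-seq, which maps where the transcription factor TCF1 sits on DNA, covered 1 WT library from lymph nodes and spleen at 10 to 12 weeks. Its input library was not analysed here. All animals carried Foxp3Cre-YFP, in which Cre and a yellow fluorescent protein are made in cells that express Foxp3, so WT cells carried Cre as well. CAT animals carried Ctnnb1flex3 in addition, an allele from which Cre removes exon 3 and leaves a beta-catenin that resists degradation. The sort took cells positive for YFP and for CD25 out of purified CD4 T cells. The labels do not say how many animals gave each library, so the p-values speak only for the variation among these libraries, some of which may be technical.

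When the T cell receptor binds its ligand, calcium and kinase signals act on factors that wait at the promoters of immediate early genes, and these genes are transcribed before any new protein is made. Nr4a1, Nr4a2 and Nr4a3 encode orphan nuclear receptors. In Treg cells they are known to help maintain Foxp3, and Nr4a1 is widely used as a reporter of receptor signalling. Egr1, Egr2 and Egr3 encode zinc finger factors, and Egr2 and Egr3 are known to restrain T cell activation. Cd69 encodes a surface protein that keeps cells in tissues by removing the receptor S1PR1 from the membrane. Dusp2 encodes a phosphatase that switches off MAP kinases in the nucleus, Ier3 a protein linked to survival, and Ier2 a nuclear protein.

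Promoter sequence was available for Nr4a1, Nr4a2, Nr4a3, Egr2, Ier3 and Dusp2, that is 6 of the 10 genes, in RefSeq windows of GRCm38.p6, the assembly behind mm10. Each window holds 250 bases before a transcription start and 50 after it. Egr2 has 5 windows, and the other 5 genes have 1 each. The 3 Nr4a promoters and 1 Egr2 promoter are shown because they share the letters TGACG, the core of the cyclic AMP response element (CRE) that immediate early promoters are known to use. The 250 bases before the start follow, 5′ to 3′ on the strand of the gene. Capitals mark TGACG or its reverse complement CGTCA and, in Egr2, also the CArG box, the motif of serum response factor. The intervals are chr15:101266596-101266845 on the plus strand for Nr4a1, chr2:57124004-57124253 on the minus strand for Nr4a2, chr4:48045055-48045304 on the plus strand for Nr4a3 and chr10:67537619-67537868 on the plus strand for Egr2.
Nr4a1: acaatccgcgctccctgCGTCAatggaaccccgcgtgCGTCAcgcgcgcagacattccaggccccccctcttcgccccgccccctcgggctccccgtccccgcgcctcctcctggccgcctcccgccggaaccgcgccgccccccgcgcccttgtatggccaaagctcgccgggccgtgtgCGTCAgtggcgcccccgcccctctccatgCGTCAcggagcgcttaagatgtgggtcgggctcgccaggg
Nr4a2: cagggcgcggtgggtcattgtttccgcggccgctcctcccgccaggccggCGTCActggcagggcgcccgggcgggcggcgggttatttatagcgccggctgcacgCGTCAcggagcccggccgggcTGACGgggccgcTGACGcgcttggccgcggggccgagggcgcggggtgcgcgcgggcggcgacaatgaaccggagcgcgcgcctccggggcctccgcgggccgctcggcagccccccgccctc
Nr4a3: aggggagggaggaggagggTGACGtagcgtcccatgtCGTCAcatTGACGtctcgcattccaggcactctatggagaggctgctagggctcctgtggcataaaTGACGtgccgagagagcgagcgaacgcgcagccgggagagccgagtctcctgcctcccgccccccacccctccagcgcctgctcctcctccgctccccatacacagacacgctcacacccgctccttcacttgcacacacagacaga
Egr2: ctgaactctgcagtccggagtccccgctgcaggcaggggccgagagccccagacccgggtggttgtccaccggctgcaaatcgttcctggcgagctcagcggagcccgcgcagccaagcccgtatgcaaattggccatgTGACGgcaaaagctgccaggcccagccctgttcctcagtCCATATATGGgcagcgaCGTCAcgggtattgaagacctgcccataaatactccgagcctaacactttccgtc

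Each Nr4a window held TGACG or CGTCA at 4 places, a number reached by 0.231% of the 32851 promoter windows in the table, and 20.8% of all windows held at least 1. The Egr2 window shown held 2 such places with a CArG box between them, a motif found in 1.63% of all windows. It was picked for these letters. The Egr2 windows chr10:67535249-67535548 and chr10:67537316-67537615 held no such place, and the remaining Egr2 windows overlap the one shown. Dusp2 held 1 place, just after its start, and Ier3 none. The full palindrome TGACGTCA, present in 1.79% of windows, was in none of the windows of the 6 genes. The letters CTTTGA, bound by TCF1 and its relatives, were in 16.0% of all windows and likewise in none of theirs. The same held for the AP-1 letters TGANTCA (7.81% of all windows), the EGR letters GCGTGGGCG (0.612%) and the NR4A letters AAAGGTCA (1.51%). The GC box GGGCGG, found in 35.7% of all windows, was present in at least 1 window of each of the 6 genes. Both strands were searched, TGACG also counts where it lies inside TGACGTCA, and a match is only a match of letters.

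RNA levels of the 10 genes moved in both directions in CAT cells. Cd69, Ier3, Egr1 and Dusp2 rose, and Nr4a2, Nr4a3 and Egr3 fell. That is 4 genes higher, where 25.5% of the 13193 tested genes were higher in CAT, and 3 lower, where 23.5% were lower (edgeR quasi-likelihood test, Benjamini-Hochberg adjusted p at most 0.05). Together 7 of the 10 were called, against 49.0% of all tested genes, a background so high that the count says little about these genes. Nr4a1, Egr2 and Ier2 did not pass the test. All 10 had fragments in every library and passed the filter on low counts. Levels are given as CPM, fragment counts set against a fixed total after scaling between libraries, and changes as log2 of CAT over WT with an approximate standard error (SE) after ±. In bulk RNA, a change in the number of expressing cells cannot be told apart from a change in the RNA of each cell. The replicate numbers used for RNA are names only.

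Whole-library values that touch these results are few. The RNA libraries held 24124086 to 31527245 fragments on named genes. Fragments fell on 19682 and 19776 genes in WT replicates 1 and 3, against 15764 to 16079 in the other 4 libraries. The 6 Treg markers (Foxp3, Il2ra, Cd4, Cd3e, Ikzf2, Ctla4) were all expressed, at a summed 814.5 to 950.8 FPKM (fragments per kilobase, scaled for depth) in WT and 1854.8 to 2445.3 FPKM in CAT, with 3 of them higher and none lower. Markers of CD8 T and NK cells summed to 27.7 to 34.5 FPKM in WT. In CAT they reached 4298.3, 4383.4 and 1647.3 FPKM in replicates 1, 2 and 3, with 7 of 8 tested members higher, and none of the 10 at 0. Gzma, a granzyme gene, alone gave 4118.9, 4221.9 and 1541.2 FPKM of these sums, and the other 9 together gave 179.4, 161.5 and 106.1 FPKM, against 26.7 to 34.0 FPKM in WT (split made after the values were seen). B cell markers summed to 16.0 to 19.6 FPKM in WT and 5.38 to 10.0 FPKM in CAT, and myeloid markers to 14.2 to 16.3 and 8.75 to 16.5 FPKM, with none of either list at 0. Of the B cell markers 2 were tested, with 1 lower, and of the myeloid markers 7, with 4 higher and 3 lower. Erythroid markers summed to 0.526 to 0.682 FPKM in WT and 3.15 to 4.44 FPKM in CAT, higher in every CAT library, with Hba-a2 listed at 0 and the 1 tested member not called. Epithelial and stromal markers summed to 56.0 to 58.2 FPKM in WT and 32.9 to 38.4 FPKM in CAT, with none of the 6 at 0. Of 4 tested members 2 were higher and 1 lower. Pecam1 fell from a mean of 168.4 to 56.8 CPM, while Epcam rose from 7.96 to 25.3 and Krt18 from 0.389 to 3.58 CPM. The lower sum thus does not hold for each marker (genes named after the values were seen). The part of these marker genes in the results below was not tested.

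**Figure D1:**
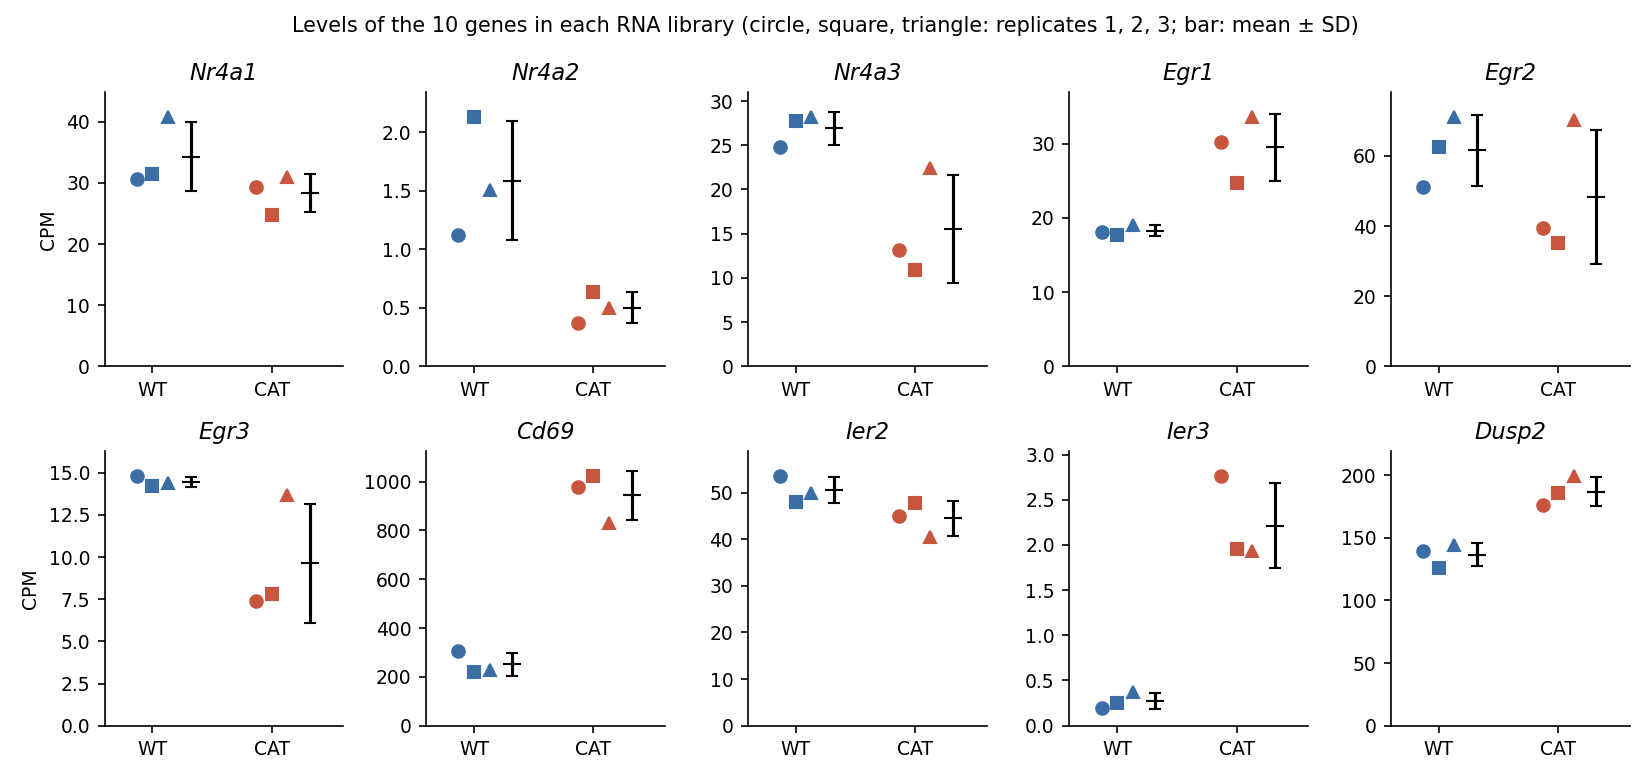
Level of each of the 10 genes in every RNA library, in CPM (linear axis from 0, own scale per gene), with the mean and SD of the 3 libraries of each genotype. Cd69 and Ier3 separate widely, while for Egr2, Egr3 and Nr4a3 CAT replicate 3 (triangle) sits close to WT.

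Of the Nr4a genes, 2 fell and none rose. Nr4a1 had 30.7, 31.4 and 40.8 CPM in WT replicates 1, 2 and 3 and 29.4, 24.8 and 30.9 CPM in the CAT replicates. The genotypes overlapped, and the log2 change of -0.27 ± 0.13 did not pass the test (adjusted p = 0.121, 95% interval -0.58 to 0.03). Nr4a3 had 24.8, 27.7 and 28.2 CPM in WT and 13.2, 10.9 and 22.4 CPM in CAT. Every CAT library lay below every WT library, and CAT replicate 3 lay nearest to WT. Nr4a3 changed by -0.80 ± 0.23 (adjusted p = 0.0169), and by -1.16 without CAT replicate 3. Its call held in 10 of 14 alternatives. Leaving out WT replicate 2 or WT replicate 3 ended it, at adjusted p of 0.0587 and 0.0546, as did keeping WT replicate 2 alone on the WT side (0.136) and limma on unfiltered FPKM (0.10). Nr4a2 was the rarest of the 3, with 29, 67 and 41 fragments in WT and 10, 15 and 14 in CAT, that is 1.12, 2.13 and 1.51 against 0.373, 0.636 and 0.499 CPM. It fell by 1.67 ± 0.35 on the log2 scale (adjusted p = 0.00391) with no overlap, and it was called with each library left out in turn. The predicted gene LOC105244150 overlaps the start of Nr4a2 in the RefSeq table, so some fragments could belong to either.

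The Egr genes split. Egr1 had 18.1, 17.7 and 19.1 CPM in WT and 30.2, 24.7 and 33.6 CPM in CAT, with no overlap. It rose by 0.69 ± 0.12 (adjusted p = 0.0016), and stayed called in each of the 14 alternatives. Egr3 had 14.8, 14.2 and 14.4 CPM in WT and 7.42, 7.80 and 13.7 CPM in CAT. Its CAT replicates 1 and 2 lay far below WT and replicate 3 just below it, so the genotypes separated narrowly. Egr3 changed by -0.58 ± 0.22 with an adjusted p of 0.0498, at the edge of the threshold. Its call held in 5 of 14 alternatives and was lost in 5 of the 6 that leave out 1 library, where adjusted p ran from 0.000158 without CAT replicate 3 (log2 change -0.92) to 0.157 without CAT replicate 2. Egr2, the most abundant Egr gene, had 51.0, 62.6 and 71.1 CPM in WT and 39.4, 35.2 and 70.1 CPM in CAT. The third CAT library lay within the WT range, and the change of -0.35 ± 0.24 did not pass the test (adjusted p = 0.246, 95% interval -0.88 to 0.18). Without CAT replicate 3 it was -0.72 with an adjusted p of 0.00144, without CAT replicate 1 it was -0.23 (0.497), and without CAT replicate 2 it was -0.17 (0.597). The authors' deposited table does call Egr2 lower, at a q-value of 0.0164, and there Nr4a1 (0.0974) and Ier2 (0.0620) are the 2 genes of the 10 that are not called.

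CAT replicate 3 was the CAT library nearest to the WT mean for 6 of the 10 genes, and for 47.9% of all tested genes. Within CAT, log2 CPM spread with an SD of 0.54 for Nr4a3, 0.53 for Egr2 and 0.49 for Egr3, where the median over all tested genes was 0.145. The same 3 genes had SDs of 0.10, 0.24 and 0.03 in WT. CAT replicate 3 also had the lowest Gzma level and the lowest sum of the other 9 CD8 T and NK cell markers among the CAT libraries, given above. The part of that difference in the Nr4a3, Egr2 and Egr3 values was not tested.

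The other 4 genes rose or did not pass the test. Cd69 had 305.9, 220.1 and 228.5 CPM in WT and 976.2, 1021.9 and 831.0 CPM in CAT, with no overlap. It rose by 1.91 ± 0.14 on the log2 scale, a 3.75-fold change (adjusted p = 9.51e-06), and by 1.82 to 2.06 with 1 library left out. Ier3 had 5, 8 and 10 fragments in WT and 74, 46 and 54 in CAT, that is 0.193, 0.254 and 0.368 against 2.76, 1.95 and 1.93 CPM. It was nearly silent in WT and low in CAT. Ier3 rose by 3.00 ± 0.34, or 8.02-fold (adjusted p = 0.000108, 95% interval 2.24 to 3.77), the largest change among the 10. Dusp2 had 139.6, 126.0 and 144.0 CPM in WT and 175.8, 185.7 and 199.1 CPM in CAT. The gap between the genotypes exceeded the spread within them, and Dusp2 rose by 0.45 ± 0.09 (adjusted p = 0.00208). Ier2 had 53.5, 48.0 and 50.0 CPM in WT and 45.0, 47.8 and 40.5 CPM in CAT. All its CAT libraries lay just below all WT libraries, yet the change of -0.18 ± 0.09 did not pass the test (adjusted p = 0.125, 95% interval -0.39 to 0.02). Counting by rank alone, 8 of the 10 genes had no overlap in CPM, 4 with CAT higher and 4 with CAT lower, where 30.1% of all tested genes had every CAT library above WT and 29.1% had every CAT library below.

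**Figure D2:**
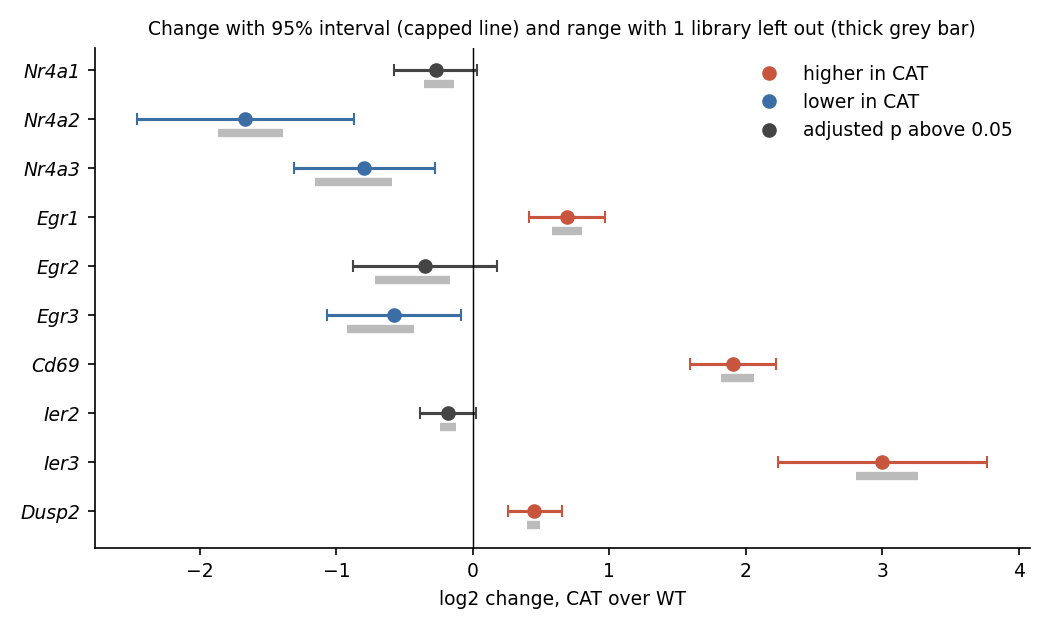
The log2 change of CAT over WT for each of the 10 genes (point) with its 95% interval (capped line), above a thick grey bar for the range of the change with 1 library left out. Ier3 and Cd69 lie farthest to the right at 3.00 and 1.91, Nr4a2 farthest to the left at -1.67, and the intervals of Nr4a1, Egr2 and Ier2 cross 0.

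Per length, in mean FPKM, Cd69 stood highest in both genotypes, at 154.6 ± 7.63 in WT and 596.3 ± 76.1 in CAT (SD, n = 3). Dusp2 followed at 104.7 ± 25.0 and 140.2 ± 20.2 FPKM, then Ier2 at 34.7 to 69.9 in WT and 29.0 to 53.6 in CAT, Egr2 at 21.0 ± 3.71 and 16.6 ± 6.50, and Nr4a1 at 15.3 ± 1.95 and 12.8 ± 2.41. Below them came Egr1 at 6.24 ± 0.326 in WT and 10.3 ± 1.84 in CAT, Nr4a3 at 4.72 ± 0.401 and 2.77 ± 1.05, and Egr3 at 3.73 ± 0.0399 and 2.53 ± 0.879. Ier3 and Nr4a2 closed the order, at 0.299 ± 0.0840 and 0.504 ± 0.170 FPKM in WT and at 2.46 ± 0.681 and 0.161 ± 0.0417 in CAT. In WT the ranges of Ier3 and Nr4a2 overlapped. In CAT those of Egr2 and Nr4a1 overlapped, as did those of Nr4a1 and Egr1, and Nr4a3, Egr3 and Ier3 lay together between 1.92 and 3.94 FPKM. These levels depend on the length that the authors' software gave each gene in each library. Ier2 had 1.842 times as much FPKM per scaled fragment in WT replicate 1 as in WT replicate 2, and 1.654 times in CAT replicate 1 as in CAT replicate 2. For Dusp2 these ratios were 1.437 and 1.381, and for Cd69 0.807 and 0.840. Ratios of at least 1.25 occurred at 15.9% of genes in WT replicate 1 and at 11.1% in CAT replicate 1. These shares cover only genes with at least 50 fragments in that library and in replicate 2 of its genotype. On FPKM the genotypes of Dusp2 overlapped, and limma on log2(FPKM + 1) did not call it (log2 change 0.43, adjusted p = 0.122).

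Within each family the balance can be read inside a library, as the share of each member in the summed FPKM. Egr1 held 24.0%, 18.9% and 18.3% of the Egr sum in the WT replicates and 42.6%, 36.6% and 28.7% in the CAT replicates. Its share was higher in every CAT library, with means of 20.4% ± 3.1 and 36.0% ± 7.0 (SD, n = 3), and the exact two-sided permutation p of 0.1 is the smallest that 3 against 3 libraries allow. Egr2 held 67.5% ± 4.4 in WT and 55.5% ± 6.1 in CAT, and Egr3 held 12.1% ± 1.3 and 8.6% ± 1.1, both with no overlap and the same exact p of 0.1. The sum of the Egr family overlapped between genotypes, at 31.0 ± 3.61 FPKM in WT and 29.4 ± 8.39 FPKM in CAT (exact permutation p = 0.8). In fragments, Egr1 stood at 1.23, 1.25 and 1.32 times Egr3 in WT and at 4.07, 3.16 and 2.46 times in CAT.

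The Nr4a sum was 20.2, 18.8 and 22.5 FPKM in WT and 17.7, 12.5 and 17.0 FPKM in CAT, lower in every CAT library (exact permutation p = 0.1). Nr4a1 held most of it, at 74.4% ± 3.7 in WT and 81.5% ± 5.0 in CAT (SD, n = 3), with overlap (exact permutation p = 0.2). Nr4a3 held 23.1% ± 2.7 and 17.5% ± 5.1, also with overlap (exact permutation p = 0.3). Nr4a1 had 1.237 times as much FPKM per scaled fragment in WT replicate 1 as in WT replicate 2. The ratio was 1.234 for CAT replicate 1 against CAT replicate 2. On fragment counts the Nr4a1 share was 10.3 percentage points higher in CAT, against 7.1 on FPKM. Nr4a1 fragments per Nr4a3 fragment overlapped, at 1.24, 1.13 and 1.45 in WT and 2.23, 2.29 and 1.38 in CAT. The share of Nr4a2 was small, at 2.5% ± 1.0 and 1.1% ± 0.5, with every CAT library below every WT library (exact permutation p = 0.1). The difference of -1.42 percentage points became -0.84 without WT replicate 2, and that of Nr4a3 went from -5.69 to -8.58 without CAT replicate 3. Across classes the contrast was wider, since Cd69 had 5.72, 4.59 and 4.57 fragments per Ier2 fragment in WT and 21.68, 21.38 and 20.53 in CAT.

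**Figure D3:**
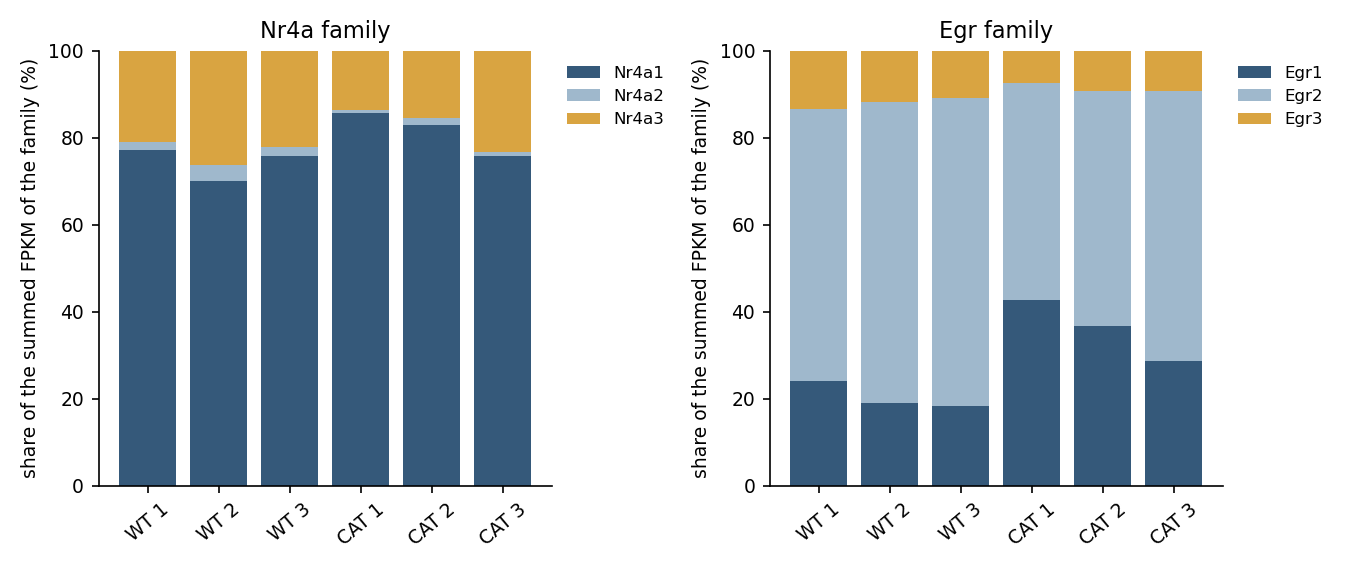
Share of each member in the summed FPKM of its family (%), in each RNA library. In the Nr4a family Nr4a1 takes 70.1% to 85.6% of every library, and in the Egr family the Egr1 share runs from 18.3% to 24.0% in WT and from 28.7% to 42.6% in CAT.

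The patterns most like 3 of the genes were sought among all tested genes, as the smallest root mean square difference of centred log2 CPM over the 6 libraries. Nearest to Nr4a1 were Zfp526 (0.037), Cluh (0.051) and Fam193b (0.058), nearest to Egr2 were Lrrd1 (0.059), Agrn (0.079) and Slc26a1 (0.108), and nearest to Cd69 were Paqr4 (0.056), Fam187b (0.076) and Kcnj15 (0.078). No other gene of the 10 was among them. Lrrd1, at a mean of 0.495 CPM in WT and 0.363 CPM in CAT, and Fam187b, at 0.179 and 0.855 CPM, rest on few fragments.

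Further genes of the same early response were counted as lists. Among all tested genes 25.5% were higher and 23.5% lower in CAT, 49.0% together, so a count of called genes says little by itself. Of 18 tested early transcription factor genes 8 rose, 3 fell and 7 were not called, with a median log2 change of 0.31 where the median over all tested genes was 0.001. Fosl2, an AP-1 subunit gene, rose by 2.25 ± 0.14, and Nfil3, a bZIP repressor gene, by 2.01 ± 0.10, while Jun changed by -1.30 ± 0.13 and Jund by 0.70 ± 0.13 (edgeR adjusted p 1.17e-06 to 0.00204 for these 4). Jund overlapped between genotypes in FPKM. Without CAT replicate 3, 5 early factors were called lower. Limma on FPKM called 4 early factors higher with either pseudocount and 3 without a filter, and 2, 2 and 1 lower. Of 20 feedback regulators of kinase and cytokine signals 12 rose and 5 fell, with a median of 0.54, and 3 were lower in each limma fit. Dusp5, like Dusp2 a nuclear MAP kinase phosphatase gene, rose by 1.78 ± 0.12, and Dusp16 rose by 1.28 ± 0.18. The antiproliferative gene Btg2 fell by 1.51 ± 0.09 on the log2 scale, and Spry1, an inhibitor of receptor kinase signalling, by 1.30 ± 0.13 (edgeR adjusted p 2.04e-06 to 0.000396 for these 4).

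Among 11 tested partners and known targets of the Egr factors 5 rose and 2 fell, with a median of 0.09. Of all tested genes 25.5% were higher and 23.5% lower, so with 11 genes these counts say little. Fasl, the ligand of the death receptor Fas and an Egr target, rose by 2.97 ± 0.19 and Tnfrsf9, which encodes 4-1BB, by 1.14 ± 0.20. The gene of the ubiquitin ligase Cblb rose by 0.82 ± 0.09. Nab2, the co-repressor that binds Egr proteins and is itself induced by them, fell by 0.94 ± 0.10 on the log2 scale, from 81.6 ± 5.56 to 42.6 ± 5.13 CPM (SD, n = 3). EdgeR adjusted p values of these 4 genes ran from 4.92e-06 to 0.00146. Of this list 3 were called higher and 1 lower in each limma fit. Likewise 3 were called higher when WT replicate 1, WT replicate 2 or CAT replicate 1 was left out, and 1 was called lower when WT replicate 3, CAT replicate 1 or CAT replicate 2 was left out.

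Genes linked to Nr4a and NFAT factors in T cells numbered 16, of which 8 rose and 4 fell, with a median of 0.56. The shares over all tested genes were 25.5% higher and 23.5% lower. Havcr2 (TIM-3) rose by 3.51 ± 0.38, Tigit by 2.76 ± 0.18 and Lag3 by 2.01 ± 0.16, all inhibitory receptors. Tox, a nuclear factor that acts with Nr4a proteins in exhausted CD8 T cells, fell by 2.40 ± 0.24, from 54.5 ± 1.21 to 10.3 ± 4.43 CPM (SD, n = 3). EdgeR adjusted p values ran from 5.41e-06 to 8.79e-05 for these 4 genes. The inhibitory receptor genes of the list did not all rise. Pdcd1 (PD-1) fell by 1.44 ± 0.11 on the log2 scale (edgeR adjusted p = 1.38e-05), while Ctla4 rose by 1.95 ± 0.17 (2.13e-05). This list shares Foxp3, Il2ra, Ikzf2 and Ctla4 with the Treg markers.

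Of 7 tested genes around the retention role of Cd69, 4 were lower and 2 higher, with a median of -0.44, where 23.5% of all tested genes were lower and 25.5% higher. With so few genes, and 49.0% of all tested genes called, the count gives no direction for the list. Each limma fit called 1 of them higher. S1pr1, the egress receptor that CD69 removes from the surface, went from 510.1 ± 2.98 to 249.9 ± 50.4 CPM (log2 change -1.03 ± 0.13, edgeR adjusted p = 0.000206). Klf2, the transcription factor that drives S1pr1, changed by -1.01 ± 0.10 and Clec2d, a C-type lectin gene of the same gene complex as Cd69, by -1.27 ± 0.11. The homing receptor gene Ccr7 rose by 0.78 ± 0.13. A list of stress genes was counted beside these. Of 8 heat shock genes 7 fell and none rose, with a median of -1.0. Hspa1a had 194.9, 210.9 and 267.6 CPM in WT and 0.745, 2.97 and 0.713 CPM in CAT. Its near-identical copy Hspa1b changed alike, so fragments of the pair are uncertain, while Hsph1 and Dnajb1 fell by 1.79 ± 0.26 and 1.38 ± 0.12. The part of that difference in the values of the 10 genes was not tested. With only WT replicate 2 on the WT side, which leaves the CAT libraries to set the spread, 5 early factors were called higher and 1 lower, 3 feedback regulators lower, 3 Egr partners and targets higher and 1 lower, and 1 retention gene higher.

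**Figure D4:**
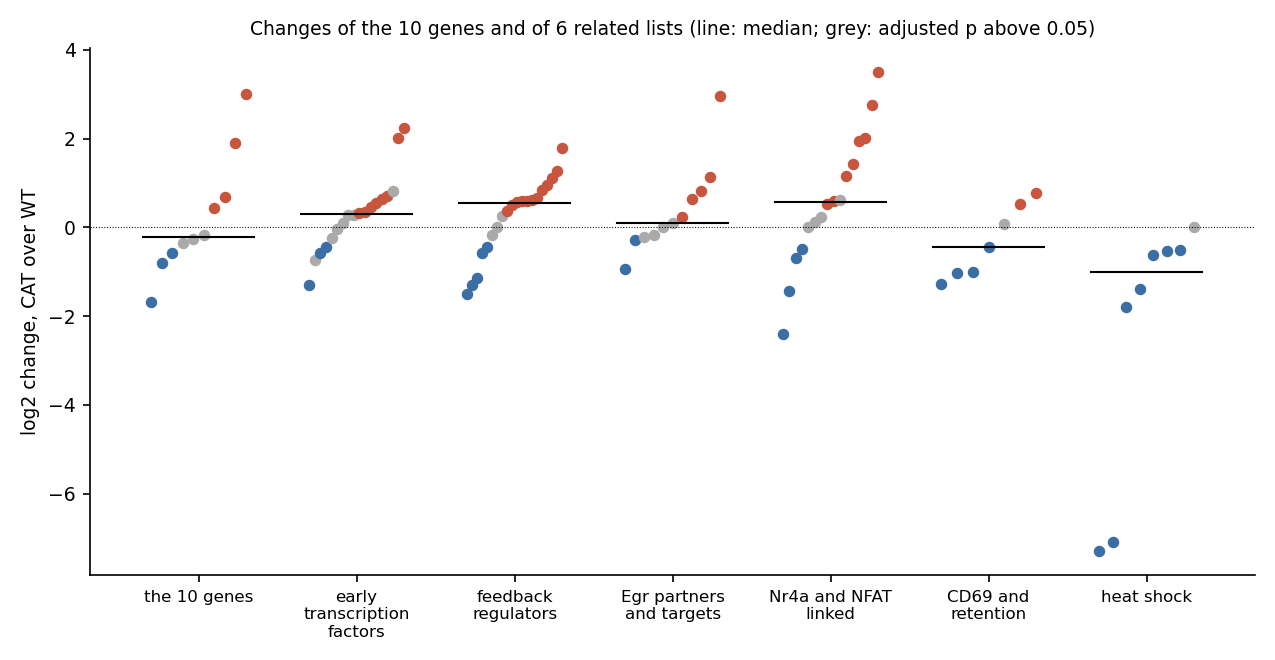
The log2 change of CAT over WT for the 10 genes and for the tested members of 6 related lists (points, red higher, blue lower, grey not called; black line, median). The 10 genes spread from -1.67 to 3.00 on both sides of 0, while 7 of 8 heat shock genes are blue, with Hspa1a and Hspa1b at -7.30 and -7.08.

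Chromatin within 5 kb of each of the 10 genes was open in both genotypes. At Ier3 and Egr3 the region open in all 5 libraries lay outside the gene itself. The promoter window of Ier3 met no open region in any library. Peaks of the 5 ATAC libraries were joined into regions, and a gene's locus was its RefSeq span with 5 kb on each side. The loci held 32 regions, of which 19 were common (a peak in all 5 libraries), 2 gained (in both CAT and no WT library), 4 lost (in all WT and no CAT library) and 7 mixed. Every one of the 10 genes had a common region, where 87.0% of 12538 tested genes with a RefSeq span had 1. A lost region stood at 3 of the 10, against 20.4% of tested genes, and a gained region at 2 of the 10, against 6.38%. These classes come from peak calls, and the ATAC lists differed in length, at 41197, 35771 and 33204 peaks in WT and 27129 and 29548 in CAT. The loci held 29, 28 and 29 peaks in WT and 25 and 24 in CAT (exact two-sided permutation p = 0.2, the smallest that 3 against 2 libraries allow). Read depth of these libraries is unknown, and its part in the region classes was not tested.

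Peaks in CAT were mostly narrower. The width of a region in a library is given as the summed width of its peaks there, without the gaps between them. At 16 of the 19 common regions both CAT widths were below all WT widths. This held for 84.0% of the 19815 common regions of the genome. The median ratio of CAT to WT width was 0.634 at the 10 genes and 0.571 over all common regions. The narrowest ratios lay at the start of Nr4a3 (chr4:48044669-48045405, 0.315), where WT peaks were 692, 724 and 702 bp wide and CAT peaks 188 and 257 bp, and at the lower end of the Nr4a1 span (chr15:101253702-101254310, 0.343), with 572, 550 and 566 bp against 125 and 261 bp. At Egr2 peaks in the single region (chr10:67536019-67537958) summed to 1904, 1839 and 1933 bp in WT and 649 and 932 bp in CAT. The 932 bp in CAT replicate 2 lay in separate peaks with a gap between them. At Cd69, whose RNA rose most in CPM, peaks over its upper end (chr6:129275092-129276104) summed to 1010, 860 and 829 bp in WT and 376 and 361 bp in CAT. In ATAC CAT replicate 1 these bases lay in separate peaks with a gap between them. The region next to Ier3 (chr17:35822941-35823643) kept 497 and 499 bp against 638, 663 and 553 bp, and it reaches into the neighbouring gene Flot1. Beyond the upper end of Ier2, chr8:84663966-84664304 had the highest ratio, 1.517, with WT widths of 253, 103 and 178 bp and CAT widths of 293 and 247 bp.

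Lost regions lay inside Nr4a1 (chr15:101267526-101268016 and chr15:101274432-101274721), inside Nr4a2 (chr2:57116468-57117188) and beyond the end of Dusp2 (chr2:127338963-127339239), the last of them within the neighbouring gene Astl. Nr4a2 fell, Dusp2 rose and Nr4a1 was not called, so genes with a lost region did not share a direction. The gained regions lay inside Nr4a3 (chr4:48076753-48077006), with peaks of 148 and 254 bp, and inside Ier2 (chr8:84661587-84661809), with 201 and 202 bp. Nr4a3 fell and Ier2 was not called. No lost or gained region stood at Cd69, Ier3, Egr1, Egr2 or Egr3.

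In WT cells, TCF1 peaks lay near most of the 10 genes. The list of 5876 TCF1 peaks, each 142 bp wide, placed 14 peaks at 8 of the 10 loci, where 38.6% of tested genes had at least 1. Nr4a1 and Nr4a3 had 3 each, a number reached by 1.79% of tested genes, and Nr4a2 and Ier2 had 2. Of tested genes 8.42% had at least 2, against these 4 of the 10. Egr1, Egr2, Cd69 and Dusp2 had 1 each, and Egr3 and Ier3 had none. All 14 lay in an open region, 13 of them in a common one, and 12 of the 19 common regions at the 10 genes held TCF1, against 4684 of the 19815 in the genome. Across the genome 5192 open regions held a TCF1 peak, 4684 of them common, on the list of 5876 peaks. A place in an open region is therefore not particular to these loci. No lost or gained region at the 10 genes held a TCF1 peak, and across the genome 144 of 6054 lost and 7 of 1929 gained regions did. With 1 ChIP library there is no replicate, and larger loci can hold more peaks.

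Of the 14 TCF1 peaks 6 lay inside a gene, 4 across an end of a gene and 4 outside it. In Nr4a1 they covered chr15:101254054-101254195 near the lower end of the gene, chr15:101258583-101258724 inside it, and chr15:101266734-101266875, which lies wholly in the promoter window shown above. In the printed bases of Nr4a1 that peak runs from base 139 to the last, over the third and the fourth CGTCA. In Nr4a3 the peaks covered chr4:48042735-48042876, chr4:48043546-48043687 and chr4:48044938-48045079, the last of which takes in bases 1 to 25 of the printed promoter and its first TGACG. The Egr2 peak (chr10:67537247-67537388) ended before the Egr2 bases shown. It covered the first 73 bases of another Egr2 window, chr10:67537316-67537615. The Cd69 peak (chr6:129275235-129275376) spanned the upper end of the gene, and at Egr1 the peak spanned from 87 bp before to 54 bp after the lower end. At Dusp2 the peak (chr2:127336100-127336241) spanned the start. Its promoter is shown because its RNA rose while the open region over its start was common to all 5 libraries, and capitals mark the part inside the TCF1 peak of WT cells (chr2:127335909-127336158, plus strand, RefSeq GRCm38.p6).
Dusp2: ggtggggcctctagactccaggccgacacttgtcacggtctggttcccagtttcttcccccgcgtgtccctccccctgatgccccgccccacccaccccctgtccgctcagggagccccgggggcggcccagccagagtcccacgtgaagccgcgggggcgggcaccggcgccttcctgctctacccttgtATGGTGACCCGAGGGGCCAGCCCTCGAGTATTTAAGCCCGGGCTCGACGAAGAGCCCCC

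**Figure D5:**
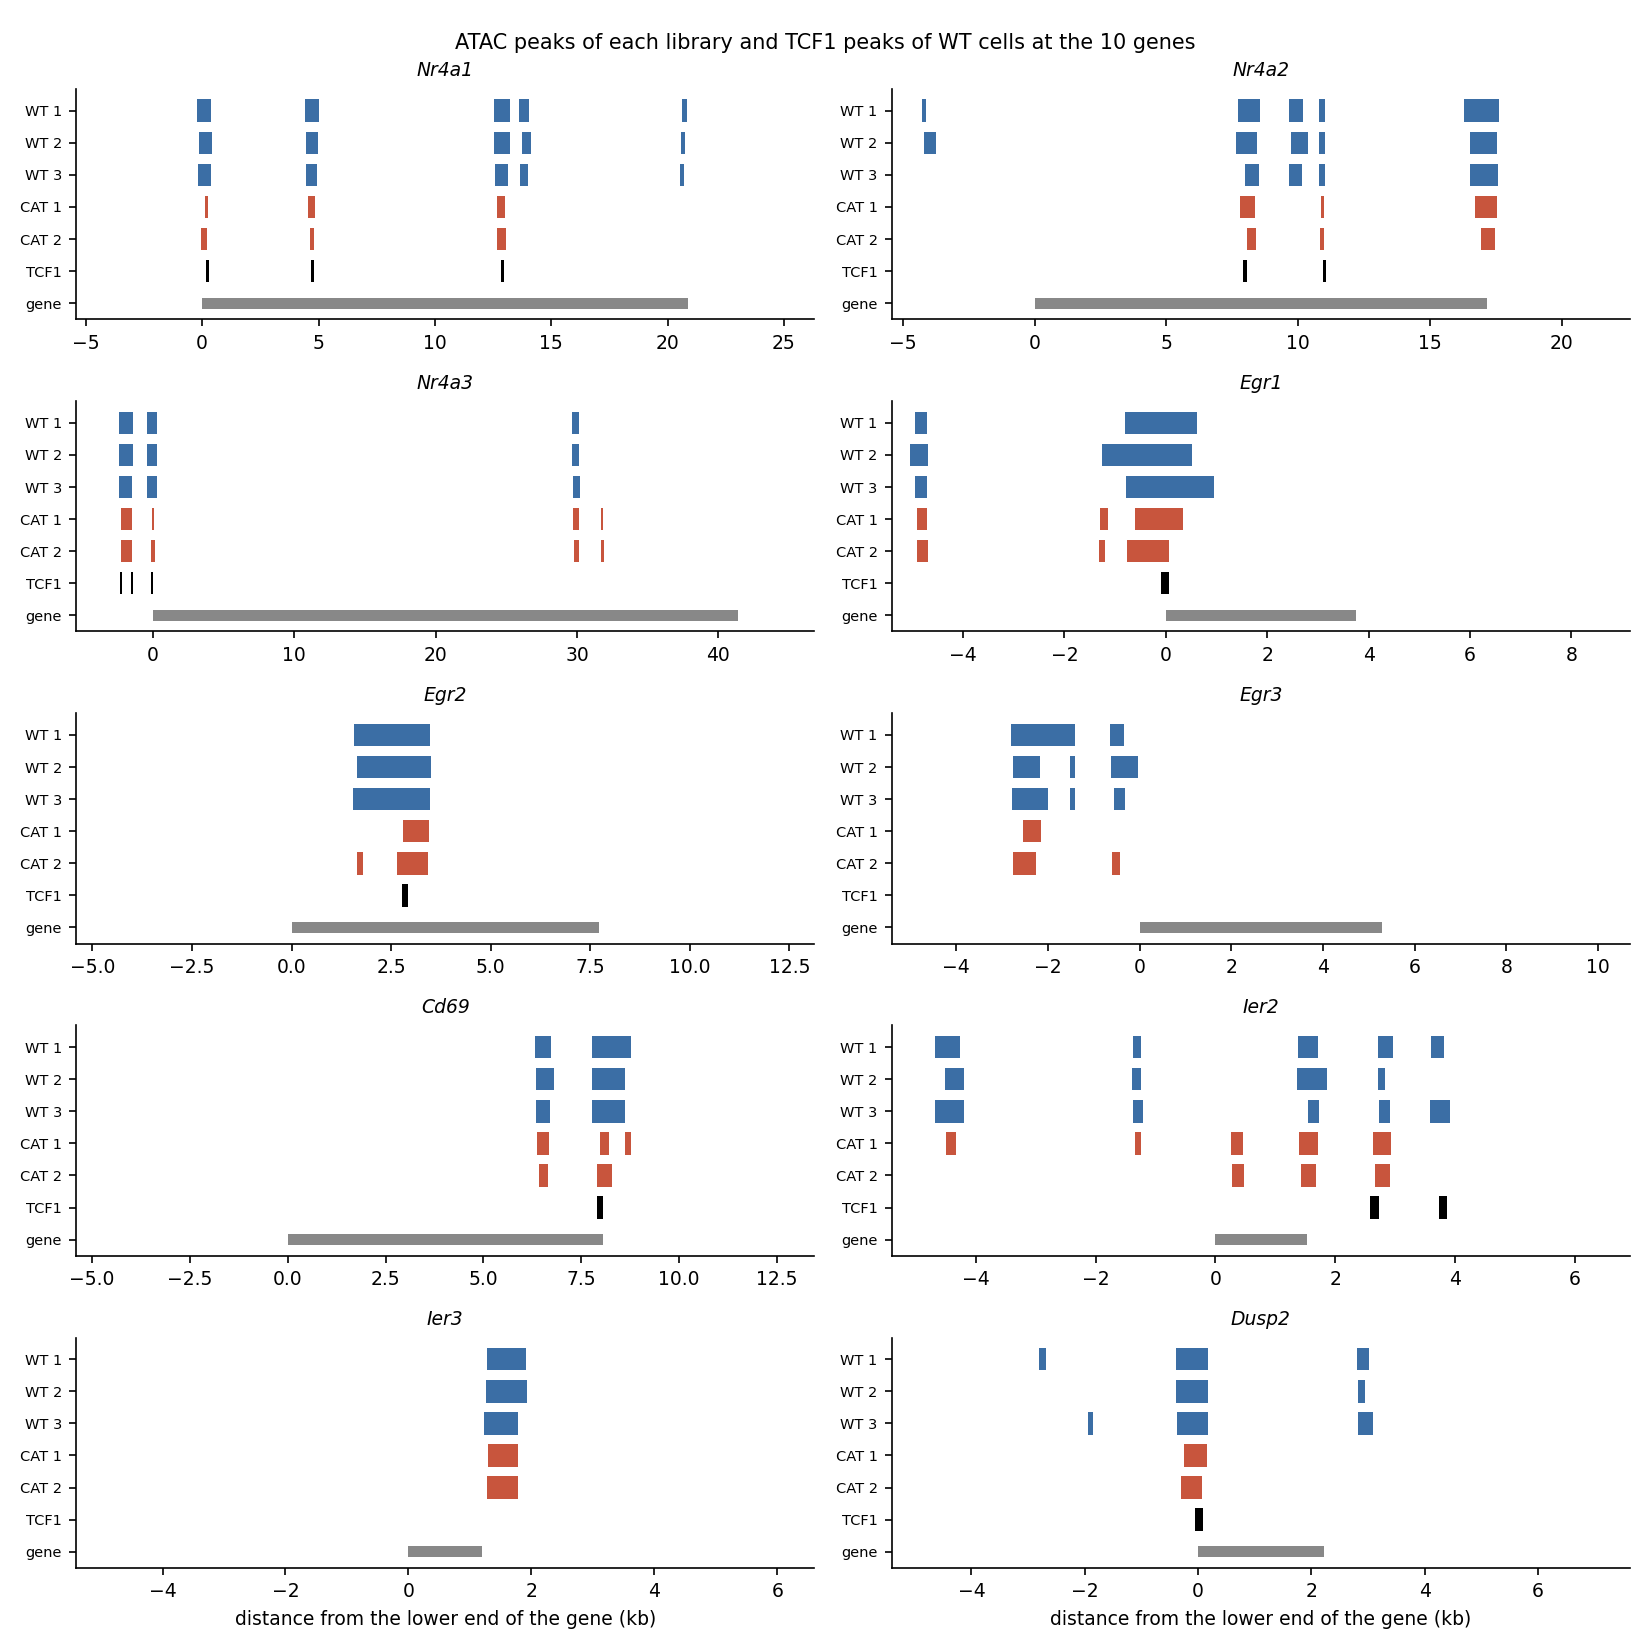
ATAC peaks of each library (blue WT, red CAT) and TCF1 peaks of WT cells (black) over each gene (grey) and 5 kb on each side, by distance from the lower end of the gene in kb. Of the 6 genes whose promoter windows were used, only Nr4a2 is on the minus strand and reads from right to left. The strand of the other 4 (Egr1, Egr3, Cd69, Ier2) was not used, so their lower end need not be their start. Most regions recur in all 5 libraries with narrower CAT peaks, the lost regions of Nr4a1, Nr4a2 and Dusp2 show as blue rows alone, and the gained ones of Nr4a3 and Ier2 as red rows alone.

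Set side by side, 2 genes picked as an example had similar chromatin and opposite RNA changes. Cd69 and Nr4a3 both had a TCF1 peak across an end of the gene, inside a common region with narrower CAT peaks, at ratios of 0.410 and 0.315, with RNA changes of 1.91 and -0.80. Ier3, the gene with the largest RNA change, and Egr3, at the edge of the threshold, were the 2 with no TCF1 peak. CAT widths below all WT widths held for 84.0% of all common regions, so they are not particular to these loci. No test was made across these 10 genes.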

How the data were processed

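For RNA the authors deposited Cuffdiff output, per the file headers, with an estimated count of fragments per gene and library (92.5% whole numbers), a scaled fragment signal, and FPKM that Cuffdiff scaled between libraries. The authors' deposited comparison table gives group FPKM, a test score, and p-values and q-values, and was matched to gene names through group FPKM (relative tolerance 0.0001). The deposited MACS2 tables, per the file headers, give each ATAC peak a pileup signal, a fold enrichment and -log10 p and q, on each library alone. Scores did not follow the coordinates beside them (rank correlation of width and pileup 0.038 to 0.055), so only positions were used, except in 1 alternative. TCF1 peaks are positions only. Bowtie, HOMER, MACS2 and mm10 are named in the submitters' processing notes. The RNA aligner, the annotation, the strand setting and tool versions are not stated in the labels or headers.

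Counts were rounded and tested with edgeR 4.0.16 in R 4.3.3 (quasi-likelihood, TMM factors 0.978 to 1.034, filter by expression, common biological variation 0.132), with Benjamini-Hochberg adjustment over all 13193 tested genes and a threshold of 0.05. The value after ± a log2 change is its size divided by the square root of the F statistic. Alternatives were other scalings, no filter, DESeq2 1.42.0, limma 3.58.1 on log2(FPKM + 1) or log2(FPKM + 0.1) for genes at 1 FPKM or more in 3 libraries, which understates low genes, and leaving out libraries. The tests were checked on simulated data. Left out were 25 identifiers turned into dates (0.265% to 0.281% of fragments) and 13 genes with a failed estimate. The file counts replicates from 0 and the labels from 1, so replicate numbers are names only. Every per-library value column was matched to a genotype. Shares and peak counts were compared by two-sided exact permutation (scipy 1.17.1). ATAC peaks were joined at 1 bp of overlap. Gene spans and promoters come from RefSeq GRCm38.p6, and exon structure was not used here.

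The 10 genes and the lists were chosen with earlier results of these data known. All 10 were to be named whatever their values. Pdcd1 and Ctla4 were named beyond the rule that follows, after the values were seen. From each of 6 further lists up to 4 called genes with the largest change, at a mean of at least 1 FPKM in either genotype, were named, and for Nr4a1, Egr2 and Cd69 the 3 genes with the most similar pattern.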

Additional observations from a re-analysis of the deposited data

How the results depend on the processing

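No paired analysis was possible because the RNA table numbers its libraries from 0 and gives no number that the labels share. Limma on FPKM called 2099 genes higher and 1834 lower with a pseudocount of 1, and 2093 and 1815 with 0.1. Without a filter it called 2077 and 1805. In each of these fits 1 of the 10 genes was lower, against 3 in edgeR. That gene was Nr4a3 in the filtered fits, where Nr4a2 did not pass the filter and was not tested. Without the filter it was Nr4a2 (limma adjusted p = 0.0328). With WT replicate 2 alone on the WT side, edgeR called 1954 genes higher and 1631 lower, with 1 of the 10 lower, where that lone library is assumed to vary like the CAT ones. With 1 RNA library left out, the number of the 10 called lower ran from 1 (without WT replicate 2 or WT replicate 3) to 4 (without CAT replicate 3), and 4 were higher each time. Besides the calls given for Nr4a3, Egr3 and Dusp2, Egr2 was called without a filter on low counts (log2 change -0.34, edgeR adjusted p = 0.00776). In that fit most adjusted p of the 10 genes fell at nearly unchanged log2 changes. That of Cd69 went from 9.51e-06 to 5.96e-53 and that of Nr4a3 from 0.0169 to 1.62e-07, while that of Ier2 rose from 0.125 to 0.221. The Egr2 call there is therefore not firmer evidence. No value changed sign. With a window of 20 kb the loci held 58 open regions, 33 of them common, and a mean of 50.33 peaks in WT and 42 in CAT libraries. In the better-scored part of each ATAC list (at or above the median -log10 q) they held 0 common, 0 gained and 1 lost regions, with means of 12.33 and 11.5 peaks. That alternative rests on scores that do not follow the coordinates. The other 133 alternative values of the main results stayed within the limits set for them. The cause of these shifts was not tested. Nr4a2 and Ier3 rest on few fragments, and ATAC read depth is unknown.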
